A study of Danio rerio with 15 samples.

Results

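The expression of 45 genes of mitosis and cytokinesis was followed through anaemia and recovery in the zebrafish heart. The genes were listed by symbol and sorted into 7 steps, running in order of the cell division programme. A gene counted as measured where the array annotation gave it at least 1 transcript cluster (the array's unit of about 1 gene) with a single symbol, and the cluster with the highest mean was used. By this rule 38 of the 45 were measured, out of 19260 named genes. The genes smc2, spc24 and mad2l1 shared a cluster with another gene, and cenpf, incenp, tpx2 and prc1a were not analysed here because the annotation table used gave them no cluster.

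Adult zebrafish were bathed in phenylhydrazine, a haemolytic compound that destroys red blood cells, to bring on anaemia and heart failure. Treatment lasted 5 weeks, with a 30 min bath every 3 days at 1.25 μg/mL in the first week and 2.5 μg/mL afterwards. Hearts were taken at the end of treatment and after 2, 5 and 9 days without the compound, and control fish were put through the same handling and baths with no phenylhydrazine in the water. Each of the 5 groups had 3 arrays, each array 250 ng of total RNA from a pool of 3 ventricles, so that p values measure the spread between such pools. Strain, sex and exact age are not given in the labels, and the control group carries no sampling day. Time in recovery and day of sampling therefore cannot be told apart.

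Mitosis begins when the kinase Cdk1, joined to a cyclin, phosphorylates a wide range of proteins, and chromosomes then condense and attach through kinetochores to a spindle of microtubules. A checkpoint holds the cell until all chromosomes are attached. The anaphase promoting complex then marks the cyclins and securin for destruction, and the midzone of the spindle places the furrow that cuts the cell apart. In adult zebrafish hearts these genes are best known from regeneration after injury, when cardiomyocytes as well as other cells of the heart divide. The roles named below are those of the vertebrate genes, established mostly in human and mouse cells.

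Values are log2 expression as deposited, on which a difference of 1 is a 2-fold change in signal. The signal of the members was mostly dim, and since it depends on the probes it is not compared between single genes: their control means ran between 2.62 and 7.76 with a median of 4.3, against 5.59 for all genes, and 5 members had a mean over all arrays below the 25th percentile of genes (3.99). The medians of the 15 arrays lay between 4.022 and 4.095. The label of heart tissue was checked against 9 measured cardiomyocyte markers, whose median was 12.52 to 12.55 at the end of treatment and 12.73 to 12.74 in controls, high on a scale that ended at 14.07. Every difference is given with the standard error of the limma fit (SE, n = 3 arrays per group), which for the members was 0.1 to 0.25. A gene was called higher or lower where its p value, adjusted over all 19260 genes, was under 0.05.

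Most of the mitotic genes were higher at the end of treatment, at 2 days and at 5 days than in control hearts. At 9 days few differed from control by the test, which does not show that the others were equal to it. At the end of treatment 36 of 38 members were higher than in controls and 0 lower, where 14.6% of all genes were higher and 9.6% lower, with a median difference of 0.98 over the members and 0.01 over all genes. At 2 days 27 of 38 were higher (7.62% of all genes, and 4.15% lower), with a median of 0.79, and at 5 days 32 of 38 (3.9% of all genes, and 2.47% lower), with a median of 0.93. At 9 days 2 of 38 were higher (4.24% of all genes, and 3.3% lower), with a median of 0.10, and the 2 is near the share of all genes. Of the 38 differences at 9 days 28 were above 0 and 10 below. The 2 called were cdc25b, described below, and mastl, which was 0.71 ± 0.20 higher (adjusted p = 0.0426). The call for mastl was lost without control replicate 1 or 3 or 9 day replicate 2 or 3, with arrays centred on their median, with no variance trend and with only the 6 arrays compared (0.56 to 0.71, adjusted p = 0.0528 to 0.175). No member was lower than in controls at any of the 4 times. The members were chosen with earlier results of these data known, so the contrast with all genes is a description and not independent evidence. Whether a tissue sample holds more dividing cells or more of each transcript per dividing cell cannot be told apart in these bulk pools. The median over the 38 members was 5.30, 5.20 and 5.40 on the end-of-treatment arrays, 4.95, 5.13 and 5.03 at 2 days, 5.25, 5.22 and 5.20 at 5 days, 4.39, 4.45 and 4.48 at 9 days, against 4.38, 4.31 and 4.18 in controls. Every array of the first 3 times lay above every array at 9 days and every control array. The 9 day arrays in turn lay above the controls, with the lowest at 4.39 and the highest control at 4.38.

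**Figure D1:**
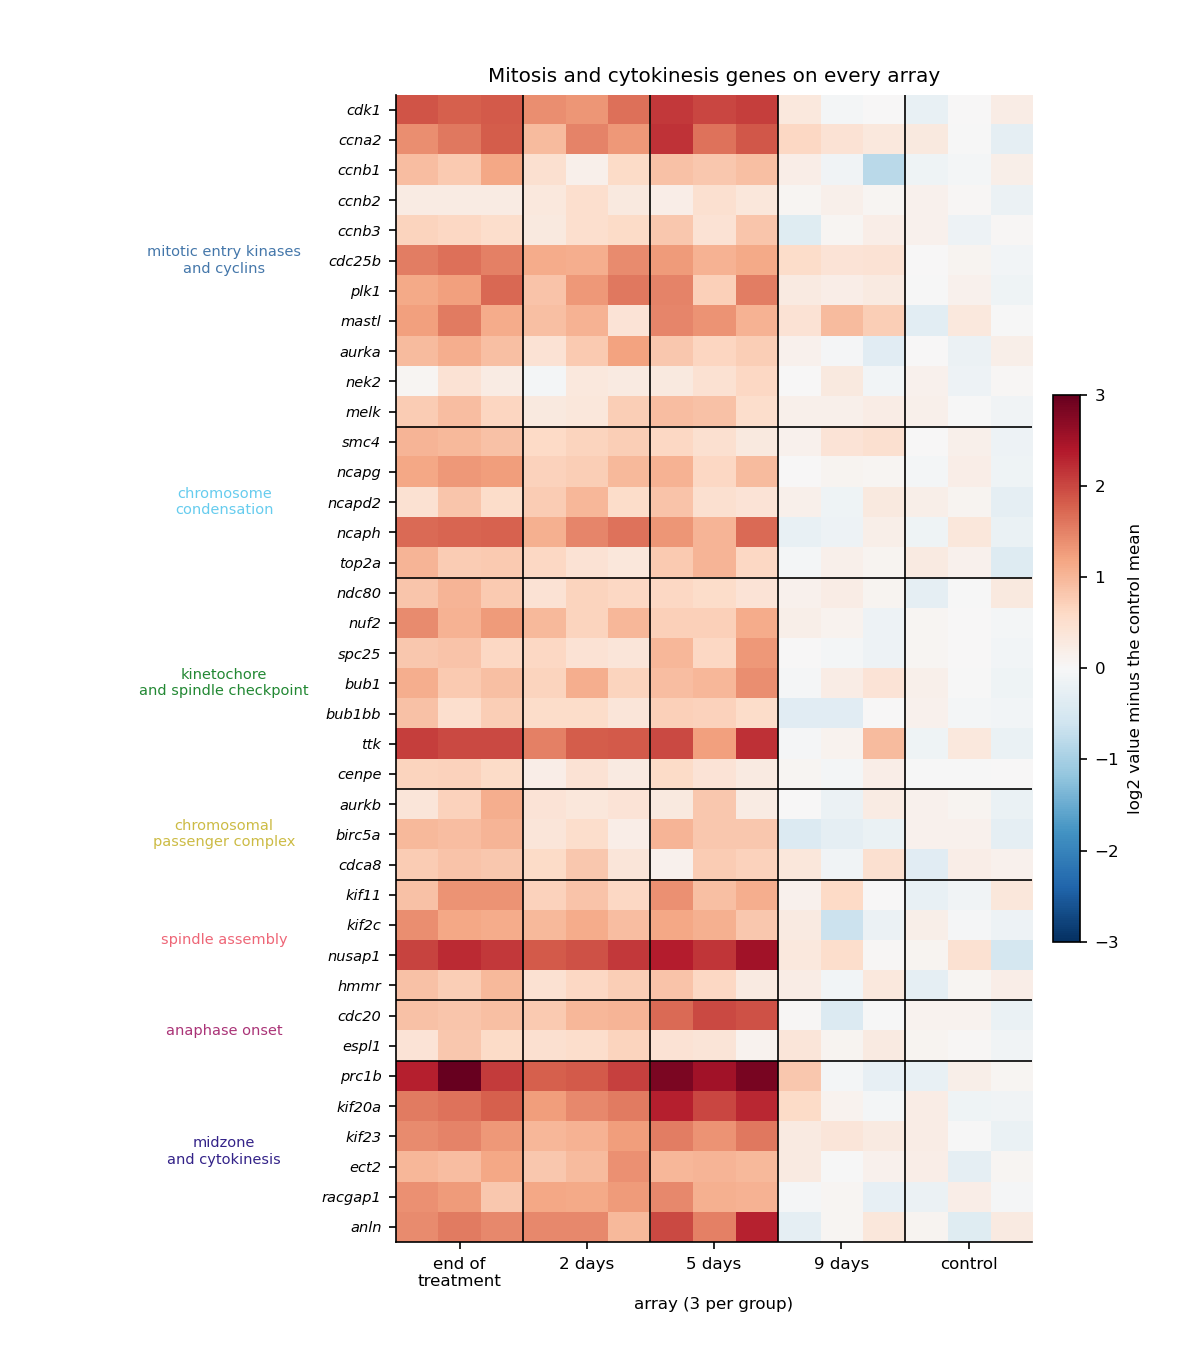
Log2 expression of the 38 measured genes on each of the 15 arrays, as the difference from the gene's control mean, with genes in rows by step of mitosis and arrays in columns by group. Red cells are above and blue cells below the control mean, with colours that saturate at 3 log2 units. The columns of the end of treatment, 2 days and 5 days are red for most genes, and those of 9 days are nearer to the control columns. The medians over the members were 4.39 to 4.48 at 9 days, slightly above the 4.18 to 4.38 of controls.

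Among the 11 kinases, cyclins and activators of mitotic entry, 9 were higher than in controls at the end of treatment (14.6% of all genes). At 2 days 6 were higher (7.62%) and at 5 days 9 (3.9%). The kinase cdk1 itself had 6.55, 6.46 and 6.51 at the end of treatment, 6.05, 5.98 and 6.32 at 2 days and 6.79, 6.67 and 6.74 at 5 days. At 9 days cdk1 had 4.98, 4.61 and 4.66, against 4.44, 4.66 and 4.88 in control hearts. All 9 arrays of the first 3 times stood above all arrays at 9 days and all controls, and the 9 day and control arrays overlapped. The difference from controls was 1.85 ± 0.14 at the end of treatment (3.59-fold, adjusted p = 7.85e-08), 1.45 ± 0.14 at 2 days (3.96e-06) and 2.07 ± 0.14 at 5 days (2.79e-07). At 9 days it was 0.09 ± 0.14, with a 95% confidence interval of -0.20 to 0.38. The cyclin A2 gene ccna2, which serves S phase and early mitosis, had 5.02, 5.21 and 5.44 at the end of treatment, 4.59, 5.11 and 4.92 at 2 days and 5.80, 5.27 and 5.49 at 5 days. At 9 days ccna2 had 4.25, 4.07 and 3.95, against 3.93, 3.62 and 3.35 in control hearts. The control arrays were all below the 9 day arrays, and the 5 day arrays overlapped those of the end of treatment. The gene was 1.59 ± 0.18 higher at the end of treatment (adjusted p = 7.87e-06) and 1.89 ± 0.18 higher at 5 days (1.44e-05), while the 9 day difference of 0.45 ± 0.18 did not pass (0.156).

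The 3 B-type cyclins, which carry Cdk1 through mitosis, gave different calls. Cyclin B1 (ccnb1) had 5.16, 5.01 and 5.40 at the end of treatment, 4.72, 4.38 and 4.80 at 2 days and 5.12, 5.03 and 5.13 at 5 days. At 9 days ccnb1 had 4.43, 4.12 and 3.43, against 4.10, 4.18 and 4.40 in control hearts. Its end-of-treatment and 5 day arrays lay above all others, and the 2 day and control arrays overlapped. It was 0.96 ± 0.20 higher than in controls at the end of treatment (adjusted p = 0.00185), and the 2 day difference of 0.41 ± 0.20 did not pass (0.238, interval -0.02 to 0.84). At 5 days ccnb1 was 0.87 ± 0.20 higher, a call that was lost without control replicate 1 or 5 day replicate 3 (0.80 to 0.85, adjusted p = 0.0511 to 0.065). The cyclin ccnb2 had 3.58, 3.57 and 3.57 at the end of treatment, 3.64, 3.84 and 3.63 at 2 days and 3.53, 3.82 and 3.67 at 5 days. At 9 days ccnb2 had 3.40, 3.48 and 3.38, against 3.47, 3.37 and 3.16 in control hearts. The control arrays overlapped those at 9 days, and none of its 10 differences was called: at the end of treatment it was 0.24 ± 0.13 from controls (adjusted p = 0.204, interval -0.03 to 0.50). The B-type cyclin ccnb3 had 3.28, 3.24 and 3.14 at the end of treatment, 2.92, 3.12 and 3.19 at 2 days and 3.43, 3.06 and 3.45 at 5 days. At 9 days ccnb3 had 2.26, 2.69 and 2.81, against 2.75, 2.46 and 2.66 in control hearts. Its 9 day arrays covered the range of the controls. The difference at the end of treatment was 0.59 ± 0.16, a call that was lost without control replicate 2 (0.51, adjusted p = 0.0507).

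The phosphatase cdc25b, which removes the inhibitory phosphates from Cdk1, had 9.30, 9.41 and 9.28 at the end of treatment, 8.88, 8.85 and 9.18 at 2 days and 9.04, 8.81 and 8.89 at 5 days. At 9 days cdc25b had 8.32, 8.18 and 8.19, against 7.76, 7.85 and 7.67 in control hearts. It was highest at the end of treatment and lower on every later array, yet at 9 days every array was still above every control. The difference from controls was 1.57 ± 0.10 at the end of treatment (adjusted p = 1.36e-08), 1.21 ± 0.10 at 2 days (7.78e-07), 1.15 ± 0.10 at 5 days (2.71e-06) and 0.47 ± 0.10 at 9 days (0.00719). The Greatwall kinase gene mastl, whose product restrains the phosphatase that opposes Cdk1, had 5.01, 5.36 and 4.91 at the end of treatment, 4.69, 4.84 and 4.20 at 2 days and 5.25, 5.14 and 4.84 at 5 days. At 9 days mastl had 4.22, 4.74 and 4.53, against 3.48, 4.11 and 3.77 in control hearts. Every treated array lay above every control, and the 9 day arrays overlapped those of 2 days. Its difference from controls was 1.31 ± 0.20 at the end of treatment (adjusted p = 0.000141). The Polo-like kinase gene plk1, which acts from entry to cytokinesis, had 5.71, 5.82 and 6.31 at the end of treatment, 5.43, 5.88 and 6.17 at 2 days and 6.06, 5.29 and 6.12 at 5 days. At 9 days plk1 had 4.84, 4.77 and 4.86, against 4.57, 4.71 and 4.45 in control hearts. The second 5 day array was the lowest of the first 3 times, and still above all 9 day and control arrays. Its difference from controls was 1.37 ± 0.22 at the end of treatment (0.000181).

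Of the other kinases, aurka (Aurora A, of the centrosome) was 0.98 ± 0.17 higher than in controls at the end of treatment (adjusted p = 0.000359) and melk was 0.77 ± 0.15 higher (0.000871). The centrosomal kinase nek2 had 4.46, 4.82 and 4.63 at the end of treatment, 4.33, 4.70 and 4.67 at 2 days and 4.68, 4.84 and 5.00 at 5 days. At 9 days nek2 had 4.39, 4.68 and 4.30, against 4.52, 4.24 and 4.42 in control hearts. The 5 day arrays lay above all controls, the other treated groups overlapped them, and none of its differences was called, with 0.24 ± 0.15 at the end of treatment (adjusted p = 0.3, interval -0.08 to 0.56) and 0.44 ± 0.15 at 5 days (0.1, interval 0.12 to 0.77). A p value that misses the threshold does not show that nek2 or ccnb2 did not differ.

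**Figure D2:**
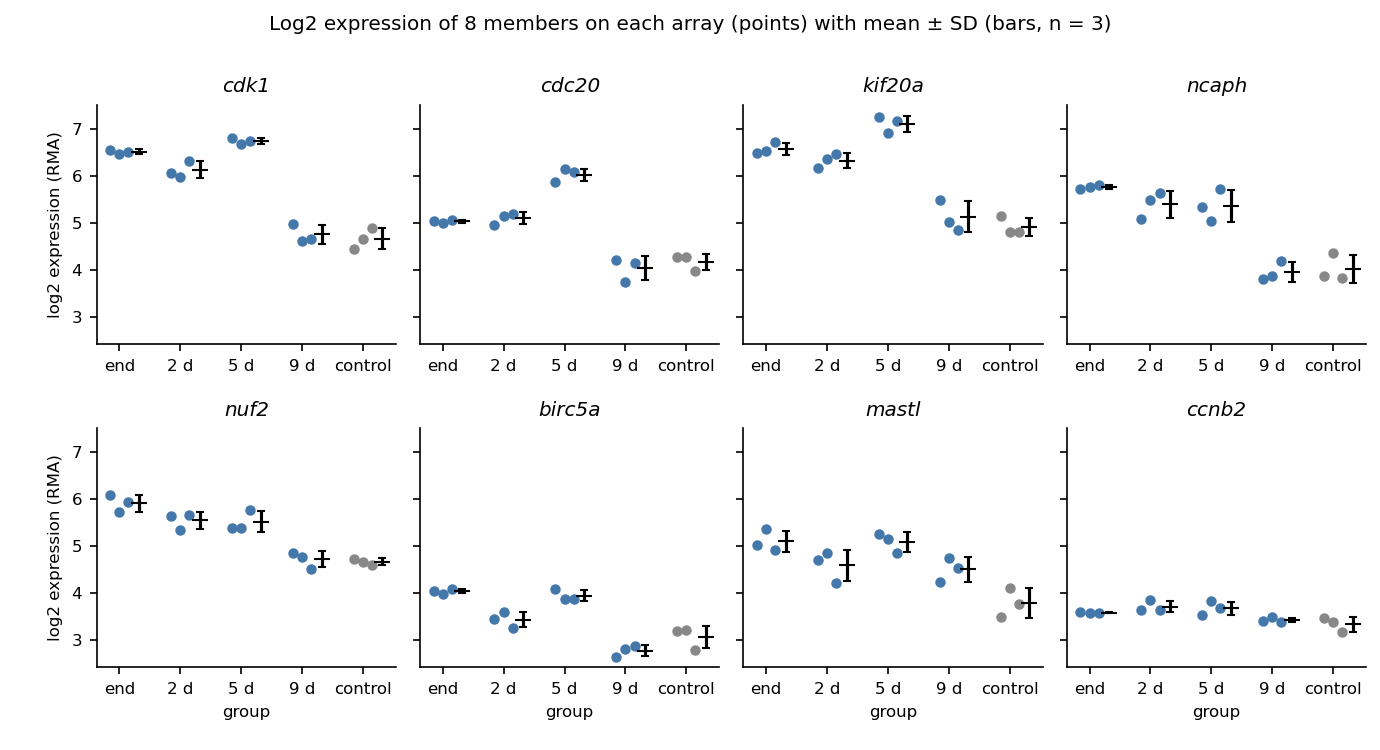
Log2 expression of 8 single genes on every array, with groups along the horizontal axis in the order end of treatment, 2, 5 and 9 days of recovery, and control. Each point is 1 array, and the marks beside the points are the group mean ± SD (n = 3). For cdk1 the arrays of the first 3 times stand between 5.98 and 6.79, above the 9 day arrays (4.61 to 4.98) and the controls (4.44 to 4.88).

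All 5 measured genes of chromosome condensation were higher at the end of treatment (14.6% of all genes). The count was 4 at 2 days (7.62%), 4 at 5 days (3.9%) and 0 at 9 days (4.24%). A count of 0 of 5 is near the share of all genes. The condensin I subunit ncaph, part of the ring that compacts chromosomes, had 5.72, 5.75 and 5.79 at the end of treatment, 5.07, 5.48 and 5.63 at 2 days and 5.34, 5.03 and 5.71 at 5 days. At 9 days ncaph had 3.79, 3.86 and 4.18, against 3.87, 4.35 and 3.81 in control hearts. The first 3 groups lay entirely above the other 2, with differences from controls of 1.75 ± 0.19 (adjusted p = 4.91e-06), 1.38 ± 0.19 (0.00017) and 1.35 ± 0.19 (0.000416) in order of time. At 9 days the difference was -0.06 ± 0.19, interval -0.47 to 0.34. The partner subunit ncapg had 6.07, 6.19 and 6.15 at the end of treatment, 5.58, 5.63 and 5.87 at 2 days and 5.95, 5.51 and 5.85 at 5 days. At 9 days ncapg had 4.92, 4.98 and 4.97, against 4.84, 5.10 and 4.77 in control hearts. The same separation held for ncapg, whose difference was 1.23 ± 0.13 at the end of treatment (adjusted p = 3.76e-06). The third subunit, ncapd2, had 4.36, 4.73 and 4.44 at the end of treatment, 4.65, 4.89 and 4.45 at 2 days and 4.76, 4.37 and 4.32 at 5 days. At 9 days ncapd2 had 4.06, 3.77 and 4.19, against 4.08, 3.99 and 3.62 in control hearts. It was the only condensation gene with its highest mean at 2 days, and its difference of 0.61 ± 0.18 at the end of treatment was lost without control replicate 3 or end-of-treatment replicate 2 (0.47 to 0.50, adjusted p = 0.0825 to 0.088).

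The core ATPase subunit smc4, shared by both condensins, had 5.36, 5.32 and 5.24 at the end of treatment, 4.95, 5.01 and 5.08 at 2 days and 4.98, 4.83 and 4.65 at 5 days. At 9 days smc4 had 4.48, 4.75 and 4.82, against 4.35, 4.50 and 4.19 in control hearts. Its group means descended with time, with differences from controls of 0.96 ± 0.13 at the end of treatment (adjusted p = 4.31e-05), 0.67 ± 0.13 at 2 days (0.00296) and 0.34 ± 0.13 at 9 days (0.14). The topoisomerase gene top2a, whose enzyme untangles sister DNA, had 5.37, 5.11 and 5.14 at the end of treatment, 4.99, 4.79 and 4.71 at 2 days and 5.15, 5.38 and 4.99 at 5 days. At 9 days top2a had 4.30, 4.51 and 4.44, against 4.62, 4.49 and 3.97 in control hearts. The end-of-treatment, 2 day and 5 day arrays were above the controls throughout, and the 2 day difference of 0.47 ± 0.16 did not pass (adjusted p = 0.0769). The end-of-treatment difference of top2a was 0.85 ± 0.16 (0.000937).

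Of the 7 measured kinetochore and checkpoint genes, 7 were higher at the end of treatment (14.6% of all genes) and 5 at 2 days (7.62%). At 5 days 7 were higher (3.9%), and at 9 days 0 (4.24%), which is near the share of all genes. The checkpoint kinase ttk (Mps1) changed most among them, with 5.94, 5.86 and 5.86 at the end of treatment, 5.39, 5.69 and 5.71 at 2 days and 5.86, 5.10 and 6.07 at 5 days. At 9 days ttk had 3.84, 3.98 and 4.81, against 3.75, 4.19 and 3.68 in control hearts. The third 9 day array stood above the other 2 of its time and above every control, but below every array of the first 3 times. Its difference from controls was 2.01 ± 0.25 at the end of treatment (4.03-fold, adjusted p = 1.66e-05), 1.72 ± 0.25 at 2 days (0.000232) and 1.80 ± 0.25 at 5 days (0.000335). The checkpoint gene bub1 had 5.36, 5.05 and 5.18 at the end of treatment, 4.94, 5.37 and 4.93 at 2 days and 5.19, 5.27 and 5.66 at 5 days. At 9 days bub1 had 4.23, 4.49 and 4.68, against 4.42, 4.26 and 4.13 in control hearts. Its difference at the end of treatment was 0.93 ± 0.17 (0.000535) and at 5 days 1.1 ± 0.17 (0.000706). The paralogous bub1bb, which encodes BubR1, had 5.76, 5.38 and 5.61 at the end of treatment, 5.42, 5.43 and 5.23 at 2 days and 5.59, 5.55 and 5.42 at 5 days. At 9 days bub1bb had 4.54, 4.53 and 4.88, against 5.01, 4.81 and 4.79 in control hearts. It was 0.71 ± 0.13 higher at the end of treatment (0.000798), and at 9 days, at -0.22 ± 0.13, its interval ran over -0.50 to 0.07.

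The Ndc80 complex, which grips the microtubule end, was measured through 3 of its 4 subunits. The subunit nuf2 had 6.07, 5.71 and 5.93 at the end of treatment, 5.64, 5.33 and 5.65 at 2 days and 5.38, 5.37 and 5.77 at 5 days. At 9 days nuf2 had 4.84, 4.77 and 4.51, against 4.72, 4.66 and 4.59 in control hearts. The first 3 groups did not overlap the last 2, with a difference of 1.24 ± 0.15 at the end of treatment (adjusted p = 9.13e-06). The subunit spc25 had 4.52, 4.58 and 4.35 at the end of treatment, 4.34, 4.15 and 4.09 at 2 days and 4.72, 4.35 and 5.03 at 5 days. At 9 days spc25 had 3.73, 3.65 and 3.57, against 3.79, 3.73 and 3.64 in control hearts. Its highest mean was at 5 days, where it was 0.98 ± 0.15 above controls (0.000933), against 0.76 ± 0.15 at the end of treatment (0.00136) and a 2 day difference of 0.47 ± 0.15 that did not pass (0.0572). The subunit ndc80 was 0.88 ± 0.15 higher at the end of treatment (0.000262). The kinetochore motor cenpe was 0.65 ± 0.12 higher at the end of treatment (0.000559), and its 5 day difference of 0.42 ± 0.12 was lost without control replicate 1, 2 or 3 or 5 day replicate 1 or 2, with arrays centred on their median, with cyclic loess, with the mean of a gene's clusters and with only the 6 arrays compared (0.15 to 0.43, adjusted p = 0.0627 to 0.569).

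The chromosomal passenger complex, which corrects faulty attachments and later moves to the midzone, had 3 measured genes. All 3 were higher at the end of treatment (14.6% of all genes), 0 at 2 days (7.62%) and 1 at 5 days (3.9%). At 9 days 0 were higher (4.24%). With 3 genes, a count of 0 is near the share of all genes. The genes birc5a and cdca8 were dim, with control means of 3.06 and 3.28 against a median of 5.59 for all genes. Its kinase aurkb (Aurora B) had 4.75, 5.06 and 5.47 at the end of treatment, 4.79, 4.71 and 4.78 at 2 days and 4.68, 5.18 and 4.63 at 5 days. At 9 days aurkb had 4.40, 4.21 and 4.62, against 4.50, 4.47 and 4.18 in control hearts. The third end-of-treatment array was the highest, and the end-of-treatment, 2 day and 5 day groups overlapped each other. The difference of aurkb at the end of treatment was 0.71 ± 0.19, a call that was lost without end-of-treatment replicate 3 (0.52, adjusted p = 0.0604). The survivin gene birc5a, whose product guides the kinase to centromeres, had 4.03, 3.98 and 4.07 at the end of treatment, 3.43, 3.58 and 3.25 at 2 days and 4.07, 3.87 and 3.87 at 5 days. At 9 days birc5a had 2.64, 2.80 and 2.87, against 3.19, 3.20 and 2.79 in control hearts. The 2 day arrays lay between the controls and the arrays of both neighbouring times without overlapping any of them. It was 0.97 ± 0.14 above controls at the end of treatment (adjusted p = 7.23e-05), 0.36 ± 0.14 at 2 days, which did not pass (0.119), and 0.88 ± 0.14 at 5 days (0.00109). The borealin gene cdca8, which encodes a subunit of the complex, had 4.03, 4.14 and 4.10 at the end of treatment, 3.86, 4.08 and 3.65 at 2 days and 3.42, 4.04 and 3.96 at 5 days. At 9 days cdca8 had 3.63, 3.17 and 3.75, against 2.95, 3.47 and 3.41 in control hearts. Its 5 day arrays overlapped the controls, and its one called difference from controls was 0.81 ± 0.20 at the end of treatment (0.00534).

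All 4 measured genes of spindle assembly were higher at the end of treatment (14.6% of all genes), at 2 days (7.62%) and at 5 days (3.9%). At 9 days 0 were higher, which for 4 genes is near the share of all genes (4.24%). The microtubule bundling gene nusap1 had 6.67, 6.88 and 6.77 at the end of treatment, 6.49, 6.57 and 6.76 at 2 days and 7.01, 6.80 and 7.17 at 5 days. At 9 days nusap1 had 4.96, 5.18 and 4.69, against 4.73, 5.10 and 4.12 in control hearts. Its 5 day mean was the highest, and the gap between the first 3 groups and the other 2 was larger than 1. The difference from controls was 2.13 ± 0.19 at the end of treatment (4.36-fold, adjusted p = 7.63e-07), 1.96 ± 0.19 at 2 days (7.42e-06), 2.35 ± 0.19 at 5 days (5.09-fold, 2.71e-06) and 0.30 ± 0.19 at 9 days (0.42). The motor kif11, which pushes the spindle poles apart, had 4.50, 4.95 and 4.96 at the end of treatment, 4.29, 4.46 and 4.23 at 2 days and 4.99, 4.51 and 4.71 at 5 days. At 9 days kif11 had 3.75, 4.21 and 3.62, against 3.38, 3.50 and 3.94 in control hearts. It was 1.2 ± 0.19 higher at the end of treatment (0.00019). The microtubule depolymerising kif2c had 5.04, 4.82 and 4.77 at the end of treatment, 4.62, 4.77 and 4.57 at 2 days and 4.82, 4.71 and 4.46 at 5 days. At 9 days kif2c had 3.91, 3.00 and 3.48, against 3.82, 3.61 and 3.50 in control hearts. The 9 day arrays were spread over nearly 1 log2 unit around the controls, and the end-of-treatment difference was 1.23 ± 0.19 (0.000117). The spindle protein gene hmmr had 4.89, 4.73 and 4.98 at the end of treatment, 4.46, 4.62 and 4.74 at 2 days and 4.85, 4.62 and 4.28 at 5 days. At 9 days hmmr had 4.22, 3.92 and 4.31, against 3.74, 4.05 and 4.20 in control hearts. It was 0.87 ± 0.17 higher at the end of treatment (0.00094), with 5 day arrays that overlapped those of 9 days.

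The pair of genes for anaphase onset had their highest means at different times. The activator of the anaphase promoting complex, cdc20, had 5.03, 5.00 and 5.06 at the end of treatment, 4.95, 5.15 and 5.19 at 2 days and 5.87, 6.13 and 6.07 at 5 days. At 9 days cdc20 had 4.20, 3.74 and 4.14, against 4.27, 4.26 and 3.96 in control hearts. Its 3 arrays at 5 days were the highest of all, the end-of-treatment and 2 day arrays lay close together below them, and the 9 day arrays overlapped the controls. The difference from controls was 0.87 ± 0.14 at the end of treatment (adjusted p = 0.000236), 0.93 ± 0.14 at 2 days (0.000366) and 1.86 ± 0.14 at 5 days (3.62-fold, 1.48e-06). The separase gene espl1, whose protease opens cohesin, had 4.74, 5.14 and 4.89 at the end of treatment, 4.79, 4.85 and 4.98 at 2 days and 4.76, 4.70 and 4.43 at 5 days. At 9 days espl1 had 4.69, 4.41 and 4.59, against 4.40, 4.35 and 4.21 in control hearts. It was 0.60 ± 0.14 higher at the end of treatment (0.00364), and at 5 days its difference of 0.31 ± 0.14 did not pass (0.223, interval 0.01 to 0.60).

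The 6 measured genes of the midzone and of cytokinesis were all higher at the end of treatment, at 2 days and at 5 days. The shares of all genes there were 14.6%, 7.62% and 3.9%. At 9 days 0 of the 6 were higher, near the share of all genes (4.24%). The median difference of the 6 genes was 1.44 at the end of treatment, 1.24 at 2 days and 1.71 at 5 days. The microtubule crosslinker prc1b, of the antiparallel midzone bundles, showed the largest difference of any member, with 6.91, 7.60 and 6.67 at the end of treatment, 6.38, 6.42 and 6.63 at 2 days and 7.41, 7.10 and 7.42 at 5 days. At 9 days prc1b had 5.38, 4.51 and 4.34, against 4.35, 4.76 and 4.64 in control hearts. The first 9 day array was the highest of its group and remained below every array of the first 3 times. Its difference from controls was 2.48 ± 0.24 at the end of treatment (5.56-fold, adjusted p = 1.66e-06), 1.89 ± 0.24 at 2 days (8.51e-05) and 2.72 ± 0.24 at 5 days (6.61-fold, 6.07e-06). The motor kif20a, which carries the passenger complex to the midzone, had 6.47, 6.53 and 6.71 at the end of treatment, 6.16, 6.35 and 6.46 at 2 days and 7.24, 6.91 and 7.16 at 5 days. At 9 days kif20a had 5.48, 5.02 and 4.85, against 5.13, 4.79 and 4.80 in control hearts. Its 5 day arrays were above all others, with a difference from controls of 2.19 ± 0.16 (7.01e-07), against 1.66 ± 0.16 at the end of treatment (1.13e-06).

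Centralspindlin, which bundles the midzone, is made of a kinesin (kif23) and a GTPase activating protein (racgap1). The kinesin gene kif23 had 6.0, 6.06 and 5.88 at the end of treatment, 5.58, 5.62 and 5.84 at 2 days and 6.12, 5.93 and 6.16 at 5 days. At 9 days kif23 had 4.84, 4.95 and 4.85, against 4.80, 4.56 and 4.38 in control hearts. It was 1.40 ± 0.13 higher at the end of treatment (adjusted p = 6.9e-07), and at 9 days all 3 arrays were above the controls by a mean of 0.30 ± 0.13, which did not pass (0.179). The partner racgap1 had 6.28, 6.18 and 5.72 at the end of treatment, 6.07, 6.04 and 6.17 at 2 days and 6.34, 5.96 and 5.94 at 5 days. At 9 days racgap1 had 4.86, 4.97 and 4.65, against 4.73, 5.11 and 4.87 in control hearts. On this cluster it was 1.16 ± 0.16 higher at the end of treatment (4.39e-05), 1.19 ± 0.16 at 2 days (0.000113) and 1.18 ± 0.16 at 5 days (0.000264). The 3 clusters of racgap1 disagreed: with their mean in place of the brightest, the differences were 0.58 at the end of treatment (0.0341), 0.41 at 2 days (0.205) and 0.62 at 5 days (0.0687), so that the calls at 2 and 5 days were lost. The cytokinesis gene ect2 had 5.25, 5.18 and 5.41 at the end of treatment, 5.07, 5.19 and 5.61 at 2 days and 5.25, 5.26 and 5.23 at 5 days. At 9 days ect2 had 4.52, 4.23 and 4.39, against 4.45, 3.99 and 4.31 in control hearts. Its first 3 groups overlapped each other, at 1.03 ± 0.15, 1.04 ± 0.15 and 1.0 ± 0.15 above controls in order of time (adjusted p = 9.73e-05, 0.000272 and 0.000811). The anillin gene anln, whose product ties the contractile ring to the membrane, had 6.13, 6.29 and 6.17 at the end of treatment, 6.17, 6.15 and 5.70 at 2 days and 6.70, 6.24 and 7.02 at 5 days. At 9 days anln had 4.46, 4.78 and 5.07, against 4.81, 4.36 and 5.00 in control hearts. The 5 day arrays were spread between 6.24 and 7.02, and anln was 1.93 ± 0.21 above controls there (3.72e-05), against 1.47 ± 0.21 at the end of treatment (5.89e-05).

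The timing of the fall was compared step by step. Between 2 days and the end of treatment 2 of 38 members were lower (4.45% of all genes) and 0 higher (3.52%), with a median over the members of -0.29. Both counts are near the shares of all genes. The 2 lower members were cdc25b, at -0.36 ± 0.10 (adjusted p = 0.0269), and birc5a. The call for cdc25b was lost without 2 day replicate 1 or 2 or end-of-treatment replicate 1, 2 or 3, with no variance trend and with only the 6 arrays compared (-0.38 to -0.30, adjusted p = 0.052 to 0.126). For birc5a the difference was -0.61 ± 0.14 (0.0115), a call lost without 2 day replicate 3 (-0.53, adjusted p = 0.0561). Of the 38 differences 33 were below 0 and 36 did not pass.

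Between 5 and 2 days 1 member was higher (0.0363% of all genes) and 0 lower (0.151%), with a median of 0.14. This was cdc20, at 0.92 ± 0.14 (adjusted p = 0.0164), a call lost without 2 day replicate 1 or 2 or 5 day replicate 2 (0.85 to 0.95, adjusted p = 0.0527 to 0.0733). The next in size were prc1b, at 0.83 ± 0.24 (0.23, interval 0.31 to 1.35), and kif20a, at 0.78 ± 0.16 (0.0537, interval 0.45 to 1.11). The difference of kif20a passed with arrays centred on their median, with cyclic loess, with a robust variance and with the dimmest genes left out. Also not called were ccna2, at 0.65 ± 0.18 (0.215, interval 0.26 to 1.04), and cdk1, at 0.62 ± 0.14 (0.0772, interval 0.33 to 0.90). Of the 38 differences 24 were above 0 and 14 below. The adjustment depends on the p values of all genes in a comparison. A difference of a given size can therefore be called in some comparisons and not in others.

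Set against the end of treatment, 5 days showed 2 members higher (4.34% of all genes) and 2 lower (8.01%), with a median of -0.05. Both counts of 2 out of 38 are near the shares of all genes. The activator cdc20 was 0.99 ± 0.14 higher (adjusted p = 0.000204). The motor kif20a was 0.54 ± 0.16 higher (0.0336), a call lost without 5 day replicate 1 or 3 or end-of-treatment replicate 1 or 2 (0.47 to 0.52, adjusted p = 0.0956 to 0.115). The phosphatase cdc25b differed by -0.42 ± 0.10 (0.00774). The condensin gene smc4 differed by -0.49 ± 0.13 (0.0217), a call lost without 5 day replicate 2 or 3 or end-of-treatment replicate 1 or 2, with arrays centred on their median and with only the 6 arrays compared (-0.49 to -0.40, adjusted p = 0.0502 to 0.0948).

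The drop came between 5 and 9 days. At 9 days 27 of 38 members were lower than at 5 days (3.25% of all genes) and 0 higher (2.87%), with a median of -0.87 over the members and -0.01 over all genes, and all 38 differences were below 0. For 33 of the 38 members no 9 day array reached any 5 day array. The share of all genes separated in this way was not counted, so no conclusion is drawn from the 33. The largest falls were those of prc1b, -2.56 ± 0.24 (adjusted p = 1.43e-05), nusap1, -2.05 ± 0.19 (1.42e-05), kif20a, -1.99 ± 0.16 (1.95e-06), cdc20, -1.99 ± 0.14 (6.28e-07), cdk1, -1.98 ± 0.14 (4.09e-07), and anln, -1.89 ± 0.21 (5.99e-05). By step, the genes that fell were 8 of 11 for mitotic entry, 3 of 5 for condensation, 5 of 7 for kinetochore and checkpoint, 1 of 3 for the passenger complex, 3 of 4 for spindle assembly, 1 of 2 for anaphase onset and 6 of 6 for midzone and cytokinesis. The step medians of the difference were -0.72 for mitotic entry, -0.76 for condensation, -0.87 for kinetochore and checkpoint, -0.42 for the passenger complex, -1.04 for spindle assembly, -1.03 for anaphase onset and -1.57 for midzone and cytokinesis. The anaphase onset value is the midpoint of 2 unlike genes, cdc20 (-1.99) and espl1 (-0.06), and describes neither. That of the passenger complex rests on 3 genes. The steps were not tested against each other, and their genes differ in signal. Control means were 3.06 to 4.38 for the passenger genes and 4.25 to 4.91 for the midzone and cytokinesis genes. The part of signal level in the step medians was not tested. With the mean of its 3 clusters the fall of racgap1 was -0.41 (0.263), and the call was lost.

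**Figure D3:**
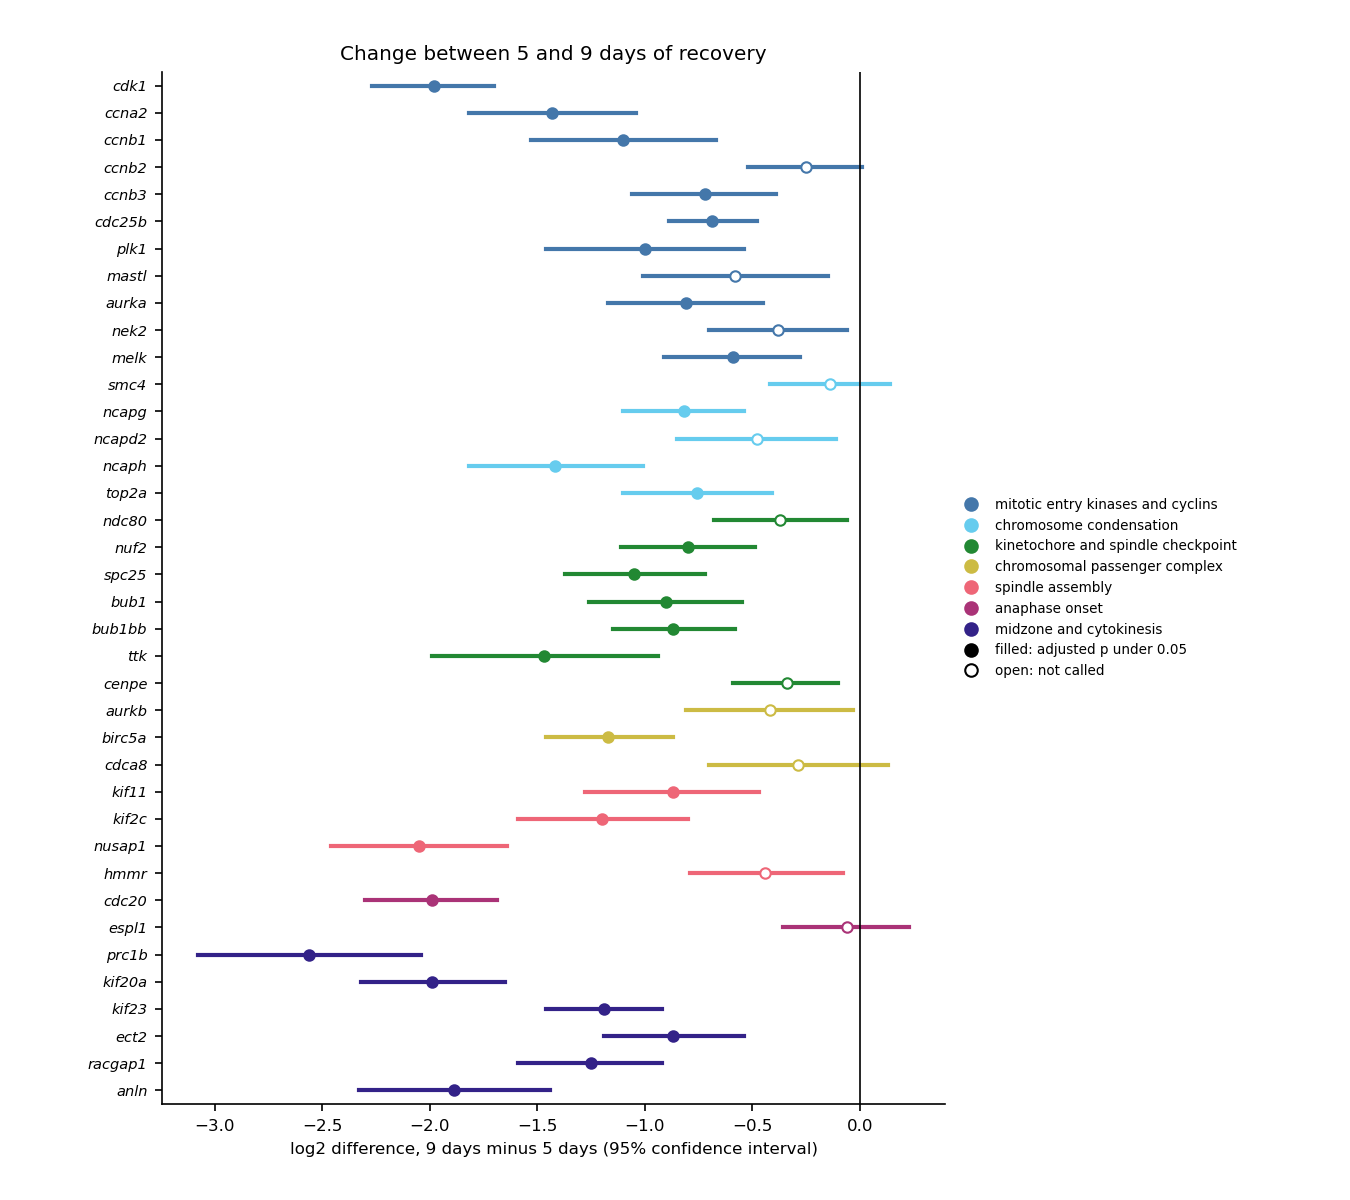
Difference between 9 and 5 days of recovery in log2 units for the 38 measured genes, coloured by step of mitosis, with 95% confidence intervals from the fit across all genes. Filled points passed the test at an adjusted p under 0.05 (27 genes) and open points did not (11 genes). The midzone and cytokinesis genes lie between -0.87 and -2.56, and espl1 (-0.06) and smc4 (-0.14) lie nearest to 0.

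Of the 11 members whose fall between 5 and 9 days did not pass, the smallest difference was that of espl1, -0.06 ± 0.14 (interval -0.36 to 0.23). That of smc4 was -0.14 ± 0.13 (-0.42 to 0.14) and that of ccnb2 -0.25 ± 0.13 (-0.52 to 0.01). Set against the end of treatment, smc4 was lower at 9 days, at -0.62 ± 0.13 (adjusted p = 0.00281), while espl1 at -0.36 ± 0.14 did not pass (0.0817). Across the members, 9 days against the end of treatment gave 33 lower (11.6% of all genes) and 0 higher (7.38%), with a median of -0.97, and 9 days against 2 days gave 23 lower (5.93%) and 0 higher (3.29%), with a median of -0.68. These comparisons share their 9 day arrays.

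On the brightest cluster of each gene, the lowest of the 4 treated groups was 9 days in all 38 members. The highest was the end of treatment in 22 members, 2 days in 4, 5 days in 12 and 9 days in 0. The share of all genes that were lowest at 9 days was not counted. A dimmer cluster of racgap1 had its highest treated mean at 9 days (4.43), as did one of cenpe (3.04). Another dimmer cluster of racgap1 (3.56) and one of kif2c (2.44) were lowest at 9 days. The end of treatment was the highest for 6 of 11 entry genes, 4 of 5 condensation genes, 5 of 7 kinetochore and checkpoint genes, all 3 passenger genes and 3 of 4 spindle assembly genes. Of the 6 midzone and cytokinesis genes none was highest at the end of treatment, 2 were highest at 2 days (ect2 and racgap1) and 4 at 5 days (prc1b, kif20a, kif23 and anln). Outside that step the genes with their highest mean at 5 days were cdk1, ccna2, ccnb3, nek2, spc25, bub1, nusap1 and cdc20. These orders are of group means and no test was made of them. Several are near ties and do not set a time apart. For ect2 the means were 5.28 at the end of treatment, 5.29 at 2 days and 5.25 at 5 days. For racgap1 they were 6.06, 6.1 and 6.08. The end-of-treatment and 5 day means were 5.09 and 5.08 for mastl, and 4.94 and 4.93 for melk. Of the 12 genes highest at 5 days only cdc20 and kif20a differed from the end of treatment by the test, as given above.

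The genes of DNA replication, which act before mitosis, were listed for comparison. Of 49 listed, 46 were measured. At the end of treatment 32 of the 46 were higher than in controls (14.6% of all genes) and 0 lower (9.6%). At 2 days 32 were higher (7.62%) and 0 lower (4.15%), and at 5 days 14 higher (3.9%) and 0 lower (2.47%). At 9 days 0 were higher (4.24%) and 2 lower (3.3%), and the 2 is near the share of all genes. The count of 2 was 1 without control replicate 1 or 3 or 9 day replicate 2 and with only the 6 arrays compared. Their highest treated group was the end of treatment for 21 genes, 2 days for 24 and 5 days for 1. Set against the end of treatment, 5 days had 10 replication genes lower (8.01% of all genes) and 0 higher (4.34%), with a median of -0.26. The mitotic genes had 2 lower and 2 higher, counts near the shares of all genes, and a median of -0.05. The count of 10 was 6 without end-of-treatment replicate 1, and 2 without end-of-treatment replicate 2, and 5 without end-of-treatment replicate 3 or 5 day replicate 1, with arrays centred on their median and with only the 6 arrays compared, and 1 without 5 day replicate 2. Between 9 and 5 days 21 replication genes were lower (3.25% of all genes) and 0 higher (2.87%). The thymidylate synthase gene tyms had 8.06, 8.09 and 7.64 at the end of treatment, 7.90, 8.21 and 7.96 at 2 days and 8.22, 7.96 and 8.23 at 5 days. At 9 days tyms had 5.23, 5.20 and 4.92, against 5.65, 5.86 and 5.18 in control hearts. Its first 3 groups lay more than 1 log2 unit above the others, and it was 2.37 ± 0.17 above controls at the end of treatment (adjusted p = 4.43e-08) and 2.58 ± 0.17 at 5 days (2.79e-07). The histone chaperone subunit chaf1b had 6.46, 6.54 and 6.43 at the end of treatment, 6.68, 6.58 and 6.61 at 2 days and 6.15, 6.10 and 6.23 at 5 days. At 9 days chaf1b had 4.66, 4.26 and 4.53, against 4.64, 4.84 and 4.51 in control hearts. Its 5 day arrays were below all end-of-treatment and 2 day arrays, at -0.32 ± 0.12 against the end of treatment, which did not pass (adjusted p = 0.104). The sliding clamp pcna had 9.03, 9.21 and 8.83 at the end of treatment, 9.05, 9.16 and 9.08 at 2 days and 8.68, 8.55 and 8.75 at 5 days. At 9 days pcna had 7.47, 7.42 and 7.65, against 7.28, 7.64 and 7.46 in control hearts. At 5 days it was at -0.37 ± 0.11 against the end of treatment (0.0351), a call lost without 5 day replicate 1 or 2 or end-of-treatment replicate 1 or 2, with arrays centred on their median, with no variance trend and with only the 6 arrays compared (-0.38 to -0.27, adjusted p = 0.0593 to 0.179).

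**Figure D4:**
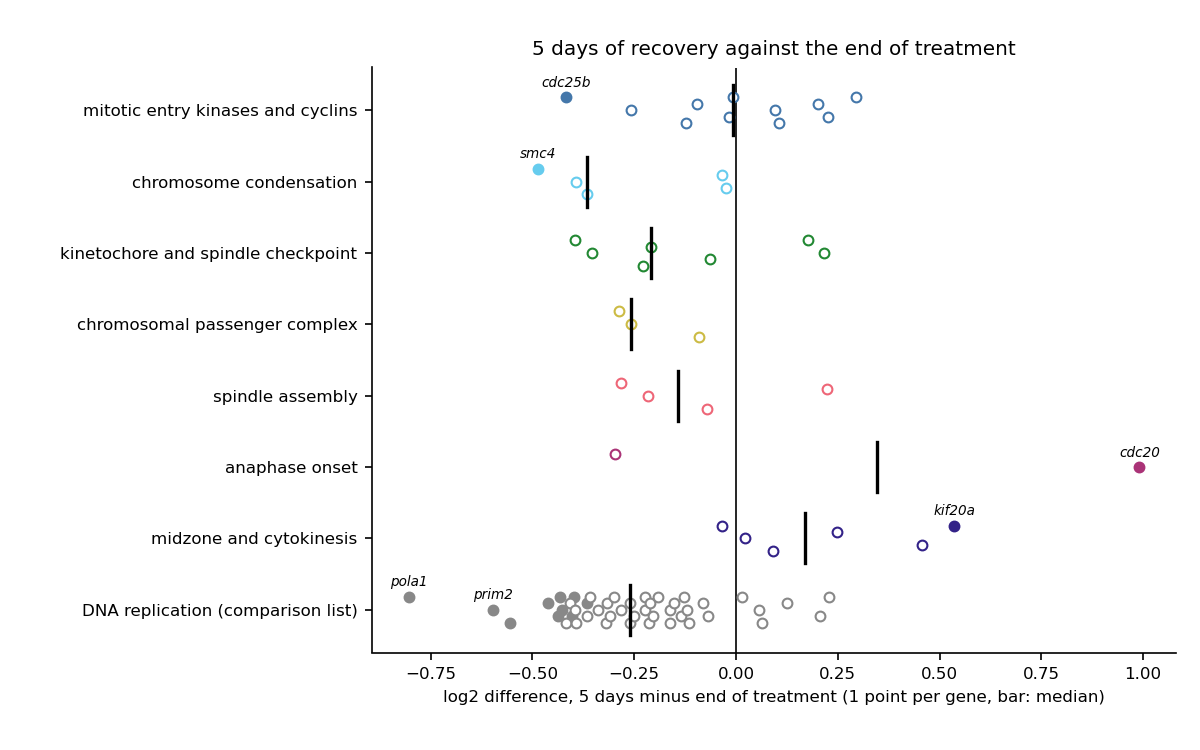
Log2 difference between 5 days of recovery and the end of treatment for each measured gene of DNA replication and of each step of mitosis, 1 point per gene, with filled points for genes that passed at an adjusted p under 0.05 and bars at the medians. The replication genes have a median of -0.26 and the midzone and cytokinesis genes a median of 0.17, with cdc20 at 0.99 and kif20a at 0.54.

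Further genes of the mitotic programme were taken from lists drawn up by role. Among 10 measured regulators known to drive mitotic gene transcription, 2 were higher and 1 lower at the end of treatment, shares near those of all genes (14.6% higher and 9.6% lower). The transcription factor foxm1 had 5.86, 6.03 and 5.89 at the end of treatment, 5.46, 5.63 and 5.71 at 2 days and 6.03, 5.41 and 5.70 at 5 days. At 9 days foxm1 had 3.94, 4.42 and 4.23, against 3.64, 4.06 and 4.06 in control hearts. The first 3 groups stood clear of the others by about 1 log2 unit, with differences from controls of 2.01 ± 0.17 at the end of treatment (4.03-fold, adjusted p = 3.42e-07), 1.68 ± 0.17 at 2 days (8.32e-06) and 1.80 ± 0.17 at 5 days (1.06e-05), and a fall of -1.52 ± 0.17 between 5 and 9 days (6.47e-05). The factor mybl2b, which acts with the MuvB complex, had 5.78, 5.84 and 5.28 at the end of treatment, 5.35, 5.59 and 5.87 at 2 days and 4.98, 5.37 and 5.64 at 5 days. At 9 days mybl2b had 4.11, 4.37 and 4.56, against 3.81, 4.33 and 4.26 in control hearts. It was 1.50 ± 0.21 above controls at the end of treatment (4.45e-05), and its difference of -0.98 ± 0.21 between 9 and 5 days was lost without 5 day replicate 3 (-0.83, adjusted p = 0.0541). The one that was lower at the end of treatment was nfyc, at -0.42 ± 0.08 (0.00111). At 9 days 2 of the 10, nfyc and rbbp4, were lower than in controls, where 3.3% of all genes were lower. The gene rbbp4 had means of 7.45 at the end of treatment, 7.37 at 5 days, 6.79 at 9 days and 7.34 in controls. Between 9 and 5 days 3 of the 10 regulators, foxm1, mybl2b and rbbp4, were lower (3.25% of all genes). The other called genes, lin37 and lin54, were 2 of the 10 and were higher (2.87%). The median over the 10 was -0.1, so the list did not fall as a whole.

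Of 22 further centromere and kinetochore genes 13 were higher at the end of treatment (14.6% of all genes) and 0 lower (9.6%), and of 18 other mitotic motors and spindle proteins 14 were higher and 0 lower. With the dimmest genes left out (the lowest tercile of means) the counts of 13 and 14 were 5 and 9. These are over fewer genes, since genes left out were not tested. The checkpoint adaptor spdl1 had 6.07, 5.81 and 6.0 at the end of treatment, 5.21, 5.35 and 5.42 at 2 days and 6.10, 5.54 and 6.07 at 5 days. At 9 days spdl1 had 4.77, 4.11 and 3.48, against 4.31, 4.40 and 4.41 in control hearts. Its 9 day arrays were spread over more than 1 log2 unit around the controls, and it was 1.59 ± 0.23 above controls at the end of treatment (adjusted p = 7.55e-05). The spindle pole gene aspm had 5.62, 5.27 and 5.27 at the end of treatment, 4.94, 5.02 and 4.96 at 2 days and 4.96, 5.26 and 5.24 at 5 days. At 9 days aspm had 3.55, 4.15 and 4.17, against 4.0, 3.66 and 3.66 in control hearts. It was 1.61 ± 0.17 above controls at the end of treatment (3.15e-06) and -1.19 ± 0.17 between 9 and 5 days (0.000546). The kinesin gene kif20bb had 5.46, 5.16 and 5.13 at the end of treatment, 5.08, 4.93 and 5.09 at 2 days and 5.90, 5.28 and 5.58 at 5 days. At 9 days kif20bb had 4.24, 3.90 and 4.20, against 3.89, 4.22 and 4.16 in control hearts. Its highest mean was at 5 days, where the arrays overlapped those of the end of treatment and the gene was 1.50 ± 0.16 above controls (3.77e-05), against 1.16 ± 0.16 at the end of treatment (5.43e-05).

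Condensin II was measured through its 3 own subunits, all higher at the end of treatment, with ncaph2 at 1.02 ± 0.14 (adjusted p = 5.32e-05) and ncapg2 at 0.66 ± 0.14 (0.00231). With the dimmest genes left out the count was 1, over fewer subunits, since genes left out were not tested. Of 16 genes for subunits of the anaphase promoting complex or for its partners, 4 were higher and 1 lower at the end of treatment, with a median of 0.16, where 14.6% of all genes were higher and 9.6% lower. The 4 higher were the partners fbxo5, fzr1a, ube2c and ube2s. The 1 lower was the subunit cdc26, with a mean of 7.69 at the end of treatment against 8.17 in controls. The count of 4 was 2 without end-of-treatment replicate 1 and with arrays centred on their median. The ubiquitin conjugating partner ube2c had 7.62, 7.37 and 7.61 at the end of treatment, 7.38, 7.29 and 7.47 at 2 days and 7.75, 7.77 and 7.72 at 5 days. At 9 days ube2c had 6.92, 7.07 and 7.17, against 6.56, 7.22 and 6.85 in control hearts. It was 0.65 ± 0.13 above controls at the end of treatment (0.00149) and 0.87 ± 0.13 at 5 days (0.000763). Cohesin and securin genes had 3 of 17 higher and 2 lower at the end of treatment, and a median of -0.01, where all genes had a median of 0.01 and shares of 14.6% higher and 9.6% lower, so the counts are near those of all genes. The count of 3 was 1 without control replicate 3 or end-of-treatment replicate 2 or 3 and with arrays centred on their median. Among 9 brakes and partners of Cdk1, 1 was higher and 1 lower at the end of treatment, counts near those of all genes (14.6% higher and 9.6% lower). The Cdk binding gene cks1b was the one higher, at 0.81 ± 0.19 (0.00475). The inhibitory kinase pkmyt1 was the one lower, at -0.33 ± 0.10 (0.0242), a call lost without control replicate 2 or end-of-treatment replicate 1, 2 or 3 (-0.35 to -0.26, adjusted p = 0.0507 to 0.115).

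Markers of other cell types in the ventricle were also called over these times. Of all genes, 14.6% were higher and 9.6% lower than in controls at the end of treatment, and 7.62% and 4.15% at 2 days. At 5 days these shares were 3.9% and 2.47%, and at 9 days 4.24% and 3.3%. Of 10 measured erythroid markers 7 were higher and 1 lower than in controls at the end of treatment, 9 higher at 2 days, 8 at 5 days and 5 at 9 days, with median differences of 0.67, 1.49, 1.07 and 0.67 in order of time. Their log2 values summed to 88.24 to 92.21 at the end of treatment, 97.06 to 98.63 at 2 days, 91.89 to 93.68 at 5 days, 87.11 to 88.9 at 9 days and 77.81 to 86.1 in controls, and none was near 0, the lowest single value being 6.03. The erythroid list was highest at 2 days, and between 9 and 5 days 4 of 10 erythroid genes were lower (3.25% of all genes). The count of 4 was 2 without 5 day replicate 1 or 9 day replicate 2, and 1 without 5 day replicate 3 or 9 day replicate 3, and 8 with only the 6 arrays compared. Of 11 leukocyte markers 9 were higher than in controls at the end of treatment and 7 at each later time, with median differences of 1.30, 0.73, 0.68 and 0.75. Their sums were 78.61 to 83.23 at the end of treatment, 74.26 to 78.84 at 2 days, 74.87 to 75.39 at 5 days, 75.11 to 77.07 at 9 days and 65.8 to 69.8 in controls. Between 9 and 5 days 0 of the 11 leukocyte markers were called, where 2.87% of all genes were higher and 3.25% lower, so that a count of 0 is near that of all genes.

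Of 9 cardiomyocyte markers 0 were higher (14.6% of all genes) and 5 lower (9.6%) than in controls at the end of treatment. Between 9 and 5 days 0 of 9 were called, with sums of 108.75 to 109.24 at 9 days and 108.82 to 109.91 at 5 days. Of all genes 2.87% were higher and 3.25% lower there, so that a count of 0 is near that of all genes. Of 7 endothelial markers 3 were higher (14.6% of all genes) and 1 lower (9.6%) at the end of treatment, with sums of 60.91 to 61.27 at the end of treatment and 60.13 to 61.32 in controls. Of 6 thrombocyte markers 3 were higher (14.6% of all genes) and 1 lower (9.6%) at the end of treatment, with sums of 41.4 to 44.02 at the end of treatment, 44.93 to 47.32 at 2 days, 44.21 to 44.68 at 5 days, 40.53 to 41.67 at 9 days and 39.16 to 41.68 in controls. The count of 1 was 0 without control replicate 2 or 3 or end-of-treatment replicate 1 or 2 and with only the 6 arrays compared, and 2 with arrays centred on their median. Between 9 and 5 days 2 of the 6 thrombocyte markers were lower (3.25% of all genes). The count of 2 was 1 without 5 day replicate 2 or 3 or 9 day replicate 2 and with no variance trend, and 0 without 9 day replicate 3, and 4 with the dimmest genes left out.

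Of 4 smooth muscle markers 1 (acta2) was higher than in controls at the end of treatment, where 14.6% of all genes were higher. At 9 days 3 (acta2, cnn1b and myh11a) were lower, where 3.3% of all genes were lower. The count of 1 was 0 without control replicate 1 or 2 or end-of-treatment replicate 1, 2 or 3, with a robust variance and with arrays centred on their median. Set against the end of treatment, 3 of the 4 were lower at 5 days and all 4 at 9 days, with a median of -1.17 at 9 days, where 8.01% and 11.6% of all genes were lower. Their sums were 38.95 to 39.92 at the end of treatment, 36.69 to 38.81 at 2 days, 34.99 to 36.22 at 5 days, 33.68 to 35.97 at 9 days and 37.53 to 38.92 in controls. Between 9 and 5 days 0 of the 4 were called, where 2.87% of all genes were higher and 3.25% lower, so that 0 is near that of all genes. Of 5 epicardial markers 2 were lower than in controls at the end of treatment (9.6% of all genes), 1 at 2 days (4.15%), 0 at 5 days (2.47%) and 3 at 9 days (3.3%), with none higher at any of these times. The count of 1 was 0 without control replicate 2 or 2 day replicate 1 or 2 and with no variance trend, and 2 without 2 day replicate 3, and 3 with arrays centred on their median. The count of 3 was 1 without control replicate 1 or 9 day replicate 2 and with only the 6 arrays compared, and 0 without control replicate 2 or 9 day replicate 3. Their sums were 38.41 to 38.97 at the end of treatment, 37.21 to 39.32 at 2 days, 38.76 to 39.37 at 5 days, 36.67 to 39.91 at 9 days and 39.94 to 42.69 in controls. Of 6 skeletal muscle markers 0 were higher (14.6% of all genes) and 1 (mylpfa) lower (9.6%) than in controls at the end of treatment. Between 9 and 5 days 0 were called, and these counts are near those of all genes. The part of these cell types in the values of the mitotic genes was not tested.

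**Figure D5:**
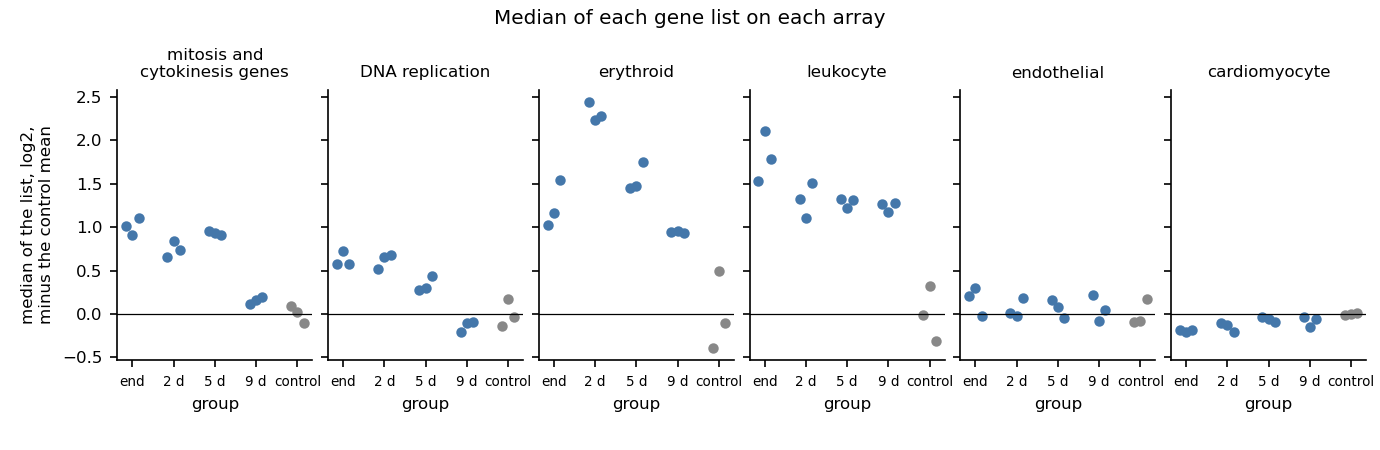
Median log2 value of each list on every array, as the difference from its control mean, by group in the order end of treatment, 2, 5 and 9 days of recovery, and control, with 1 point per array and 1 panel per list. The mitotic genes lie between 0.66 and 1.11 at the first 3 times, between 0.11 and 0.19 at 9 days and between -0.11 and 0.09 in controls.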

How the data were processed

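Expression in pooled zebrafish ventricles was measured on 15 whole-transcript arrays, 3 in each of 5 groups. The deposited log2 expression values come from RMA (robust multi-array average, in oligo), per the submitters' processing notes. RMA subtracts background, gives all arrays the same distribution and fits 1 value per probe set, so that a change shared by all genes cannot be seen. Software versions and the genome build behind the array were not given in the sources used here, and no coordinates or sequences are printed. Of 75212 transcript clusters, 20806 had exactly 1 symbol in the array annotation, 855 had several and 53551 had none there, and 20323 were matched by gene ID to a gene table of assembly GRCz12tu, which updated 1 symbol. Of the 1365 genes with several clusters the brightest on average was kept, leaving 19260 genes.

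All 15 arrays entered 1 limma fit (version 3.58.1, R 4.3.3) with a mean for each group and a variance prior that follows intensity. Tests were 2-sided, in 10 comparisons, each with Benjamini-Hochberg adjustment across the 19260 genes and a threshold of 0.05. The smallest exact permutation p of 3 against 3 arrays is 0.1, so each call depends on the variance estimate that limma shares between genes. Precision is limited by the number of arrays. Tables were made with pandas 2.3.3 and figures with matplotlib 3.10.9, under Python 3.11.15.

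The members and lists were chosen with earlier results of these data known. Array values are given for up to 4 members of each step with the smallest p of the F test over the groups, for cdk1, ccnb1, aurkb, prc1b and anln, for members called in no comparison with control, and for members whose highest treated group differs from that of most of their step. Of the other lists up to 4 genes with the smallest F test p are named, and 36 of 38 members passed that F test, against 26.9% of all genes. Any other gene was named after its values were seen. Alternatives tried were no variance trend, a robust variance, centring, cyclic loess, the mean of a gene's clusters, the dimmest genes left out (the lowest tercile of mean values), the replicate number as a block, only the 6 arrays compared, and each array left out in turn; those for lists other than the members were added after the data were seen. No pairing of the samples by replicate number was detected, and the reported fit used none.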

Additional observations from a re-analysis of the deposited data

Results flagged for a closer look

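Neighbouring times differed by the test for 30 gene and time pairs of the mitotic list at an adjusted p under 0.05. Since the control mean cancels when differences from controls are compared, these are the same contrasts as the step by step calls given above and add no further evidence. The groups of 3 arrays are too small for a test of single outlying arrays, and none was made.

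Of the 30, 27 set 9 days against 5 days, and every one was negative. Among the genes of mitotic entry the difference was -1.98 for cdk1, -1.43 for ccna2, -1.1 for ccnb1, -0.72 for ccnb3, -0.69 for cdc25b, -1.0 for plk1, -0.81 for aurka and -0.59 for melk. The call for ccnb3 was lost without 5 day replicate 3 or 9 day replicate 1 and with only the 6 arrays compared (-0.72 to -0.56, adjusted p = 0.053 to 0.0674). That for plk1 was lost without 5 day replicate 3 (-0.85, adjusted p = 0.0641). That for melk was lost without 5 day replicate 1 or 2 or 9 day replicate 1, 2 or 3 and with only the 6 arrays compared (-0.61 to -0.52, adjusted p = 0.0609 to 0.0853). In condensation it was -0.82 for ncapg, -1.42 for ncaph and -0.76 for top2a, and the call for top2a was lost without 5 day replicate 2 (-0.66, adjusted p = 0.0523). At the kinetochore and checkpoint it was -0.80 for nuf2, -1.05 for spc25, -0.90 for bub1, -0.87 for bub1bb and -1.47 for ttk. The passenger gene birc5a stood at -1.17. Spindle assembly gave -0.87 for kif11, -1.2 for kif2c and -2.05 for nusap1, and the call for kif11 was lost without 9 day replicate 3 (-0.75, adjusted p = 0.0621). For cdc20 it was -1.99. Midzone and cytokinesis gave -2.56 for prc1b, -1.99 for kif20a, -1.19 for kif23, -0.87 for ect2, -1.25 for racgap1 and -1.89 for anln. The call for racgap1 was lost with the mean of a gene's clusters (-0.41, adjusted p = 0.263).

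The other 3 were at earlier steps. Between 2 days and the end of treatment cdc25b differed by -0.36 and birc5a by -0.61, and between 5 and 2 days cdc20 differed by 0.92. The call of birc5a at that step was lost without 2 day replicate 3 (-0.53, adjusted p = 0.0561), that of cdc25b without 2 day replicate 1 or 2 or end-of-treatment replicate 1, 2 or 3, with no variance trend and with only the 6 arrays compared (-0.38 to -0.30, adjusted p = 0.052 to 0.126), and that of cdc20 without 2 day replicate 1 or 2 or 5 day replicate 2 (0.85 to 0.95, adjusted p = 0.0527 to 0.0733).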

How the results depend on the processing

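Of the 187 differences called for single members, 35 were lost without at least 1 array and 21 under at least 1 other alternative, and none changed sign. Under alternatives that kept all arrays of a comparison, 150 counts of mitotic genes stayed within 1.5 times the reported count and 10 did not. The 150 include many counts of 0 that stayed 0, and all 10 that moved were reported counts of 1 or 2. The count of genes higher at 5 days than at 2 days was 2 in place of 1 with arrays centred on their median, cyclic loess, a robust variance, the dimmest genes left out or only the 6 arrays compared. The count of genes higher at 9 days than in controls was 1 in place of 2 with centred arrays, no variance trend or only the 6 arrays compared. The count of genes lower at 5 days than at the end of treatment was 1 in place of 2 with centred arrays or only the 6 arrays compared. With 1 array left out at a time, the counts ran from 0 to 1 for higher at 5 than at 2 days, from 1 to 2 for higher and from 1 to 2 for lower at 5 days than at the end of treatment, from 1 to 2 for lower at 2 days than at the end of treatment, and from 1 to 2 for higher at 9 days than in controls. They ran from 35 to 36 at the end of treatment, from 22 to 25 at 2 days and from 26 to 30 at 5 days against controls, and from 25 to 26 for 9 against 5 days.

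With the replicate number as a block, 28 genes in place of 32 were higher at 5 days than in controls, and the other counts of mitotic genes were the same as without it. Same-numbered arrays did not deviate together (correlations of -0.161 to 0.0983 over 30 pairs, against -0.125 to 0.143 over 60 pairs of different number). No pairing by number was detected, which does not show that the samples were unpaired. With centred arrays the median difference of all genes at the end of treatment from controls was -0.11, in place of 0.01. A comparison of promoter motifs was not run, since no promoter sequences were used here. Dim signals set a limit, since with the dimmest genes left out 28 of the 38 members were tested. Whether the measured change lies in heart cells or in blood cells within the ventricle was not tested.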
